A study of Mus musculus with 6 samples.

Results

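The 40 genes described here act in DNA replication and S phase, and all 40 were found by symbol among the 23358 entries of a gene count table. They fall into 5 roles, namely loading and running the replicative helicase (15 genes), polymerases with their clamp and lagging-strand enzymes (13), nucleotide supply (4), copying of chromatin and DNA methylation (4) and the E2F and cyclin E control of S-phase entry (4). All 40 passed the filter on low counts that left 16280 genes for testing. The cells were immature mouse chondrocytes taken at post-natal day 5 from the hip and knee, of a strain labelled C57BL/6 - mix. They were kept in micromass culture, where a dense spot of cells builds its own cartilage matrix, in medium with 2% serum to which insulin, transferrin and selenium, 0.05 mg/mL ascorbic acid and 10 mM β-glycerol phosphate were added. Ezh2-deficient cells and wildtype cells each gave 1 library on culture days 3, 7 and 14, which makes 6, and both genotypes had the same culture conditions. Ezh2 encodes the methyltransferase of Polycomb repressive complex 2, which marks histone H3 at repressed genes. The titles call the deletion a cKO. Neither the Cre driver, nor how completely Ezh2 was deleted, nor any pooling of animals is stated in the labels.

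DNA replication starts when the origin recognition complex, Cdc6 and Cdt1 load the Mcm2 to Mcm7 ring onto DNA in G1. Cdc45 and the GINS subunits then join the ring to make the active helicase, and polymerases alpha, delta and epsilon copy the strands with the sliding clamp Pcna. Most of these genes are transcribed at the G1 to S transition under E2F factors, so their RNA is widely read as a sign of proliferating cells. Growth-plate chondrocytes proliferate before they become hypertrophic and leave the cell cycle.

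Depth was 51985214 to 79323302 counts per library, and levels are given as CPM, a gene's counts relative to the library total, after TMM scaling, which corrects for differences in library composition. A floor of 3 fragments corresponded to 0.0763 to 0.114 CPM, below the lowest level of any of the 40 genes, and floors and counting intervals cover counting error only. Ezh2 had 14.7, 23.0 and 17.6 CPM in Ezh2-deficient libraries at days 3, 7 and 14, against 24.7, 40.2 and 27.9 CPM in wildtype libraries. It was lower on each day but did not pass in edgeR (log2 difference -0.74 ± 0.08, SE; adjusted p = 0.0729). The labels do not state which exons were deleted, so a gene-wide level cannot check the genotype. All 10 chondrocyte markers (Col2a1, Acan, Sox9 and others) were detected. Their summed level ran from 23200 to 130000 CPM in Ezh2-deficient libraries and from 37700 to 134000 CPM in wildtype libraries, highest at day 3 and lowest at day 14 in both. Of other cell types, 10 of 10 macrophage markers summed to 114 to 2680 CPM in Ezh2-deficient libraries and 155 to 1940 CPM in wildtype libraries. For 10 of 10 osteoblast markers the sums were 1930 to 99700 CPM and 1380 to 50300 CPM, in the same order of genotypes. For 10 of 10 fibroblast markers they were 13500 to 69800 CPM and 12300 to 48700 CPM. Single abundant genes weigh heavily in these sums. At day 14 Col1a2 alone had 52320 CPM in the Ezh2-deficient and 26760 CPM in the wildtype library. Yet the median log2 genotype difference of the fibroblast markers was then -0.19, with 6 of 10 lower in the Ezh2-deficient library. Lyz2 had 1803 and 1149 CPM, and the macrophage median was 0.07, with 7 of 10 higher. The 8 of 8 adipocyte markers summed to 234 to 959 CPM in Ezh2-deficient libraries and 107 to 609 CPM in wildtype libraries. Endothelial markers (8 of 8) summed to at most 6.96 CPM in Ezh2-deficient libraries and 9.13 CPM in wildtype libraries, and skeletal muscle markers (8 of 8) to at most 16.9 CPM and 14.6 CPM. Of 6 erythroid markers 5 were matched, and the globin genes Hba-a1 and Hbb-b1 had 0 counts. What these cells contributed to the replication genes was not tested.

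Of the 40 genes, 33 had a RefSeq promoter window (250 bases before to 50 after a start site, build GRCm38.p6), and 6 of these had more than 1. The windows were searched on both strands for 4 spellings of the E2F motif, TTTCCCGC, TTTGGCGC, TTTCGCGC and TTTGCCGC, some of which overlap each other when read on opposite strands. A match was found for 14 of 33 genes (42.4%), against 704 of 27025 genes of the whole promoter table (2.6%). It was also found for 11 of 31 other replication genes (35.5%) and 3 of 31 mitosis genes (9.68%), from lists compared further on. By role it was found for 7 of 11 helicase genes, 4 of 11 polymerase genes, 2 of 4 chromatin genes, 1 of 3 E2F and cyclin E genes and 0 of 4 nucleotide supply genes. CCAAT, a common promoter element, was found for 20 of 33 (60.6%), against 41.1% of all. Its share was 58.1% in the other replication genes and 74.2% in the mitosis genes. The stretches below show the match nearest a start site in the 7 helicase genes, where matches were most frequent, and in Uhrf1 and E2f2, which had a steep and the flattest genotype trend, described further on. Each is 30 bases, 5′ to 3′ on the gene's strand, with matched letters in capitals.
Mcm3 (chr1:20820275-20820304, minus strand): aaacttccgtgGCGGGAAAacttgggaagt
Mcm5 (chr8:75109347-75109376, plus strand): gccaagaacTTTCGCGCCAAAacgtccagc
Mcm6 (chr1:128359734-128359763, minus strand): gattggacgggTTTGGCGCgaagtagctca
Mcm7 (chr5:138171849-138171878, minus strand): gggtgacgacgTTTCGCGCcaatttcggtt
Cdc6 (chr11:98908002-98908031, plus strand): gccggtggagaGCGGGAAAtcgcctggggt
Cdt1 (chr8:122568035-122568064, plus strand): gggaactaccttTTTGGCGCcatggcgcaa
Orc1 (chr4:108579416-108579445, plus strand): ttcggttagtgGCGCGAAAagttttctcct
Uhrf1 (chr17:56304117-56304146, plus strand): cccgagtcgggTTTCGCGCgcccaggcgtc
E2f2 (chr4:136172294-136172323, plus strand): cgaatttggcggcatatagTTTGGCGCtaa
In Mcm5 the run in capitals is 2 overlapping matches, 1 on each strand. The match began 27 bases before the start site in Orc1 and 47 bases before it in Mcm6, and 16 and 19 bases after it in Mcm7 and Mcm3. In Uhrf1, which had more than 1 window, it began 185 bases before the start site of window 2. Window 1 of Uhrf1 had 0 matches. These are matches of letters and no measure of binding.

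In both genotypes the replication genes were highest in the middle of the culture. All 40 peaked at day 7 in wildtype libraries, and 38 of 40 did so in Ezh2-deficient libraries, where Mcm2 and Orc6 were highest at day 3. Both exceptions depend on the scaling. On the authors' RPKM scale all 40 peaked at day 7 in both genotypes. The day 7 to day 3 ratio of Mcm2 in Ezh2-deficient libraries, 0.995 on the CPM scale, had an interval that took in 1 (0.934 to 1.06). For Orc6, with 23.8 CPM at day 7 against 26.5 CPM at day 3, the interval lay below 1. The lowest day differed between genotypes. It was day 14 for 33 genes and day 3 for 7 genes in Ezh2-deficient libraries, against day 14 for 2 genes and day 3 for 38 genes in wildtype libraries. Summed over the 40 genes, the level was 994, 1386 and 769 CPM at days 3, 7 and 14 in Ezh2-deficient libraries, against 867, 1886 and 1266 CPM in wildtype libraries. The Ezh2-deficient sum was thus the higher at day 3 and the lower at days 7 and 14. In these bulk libraries, fewer cells in S phase and less of each RNA per cell cannot be told apart.

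**Figure D1:**
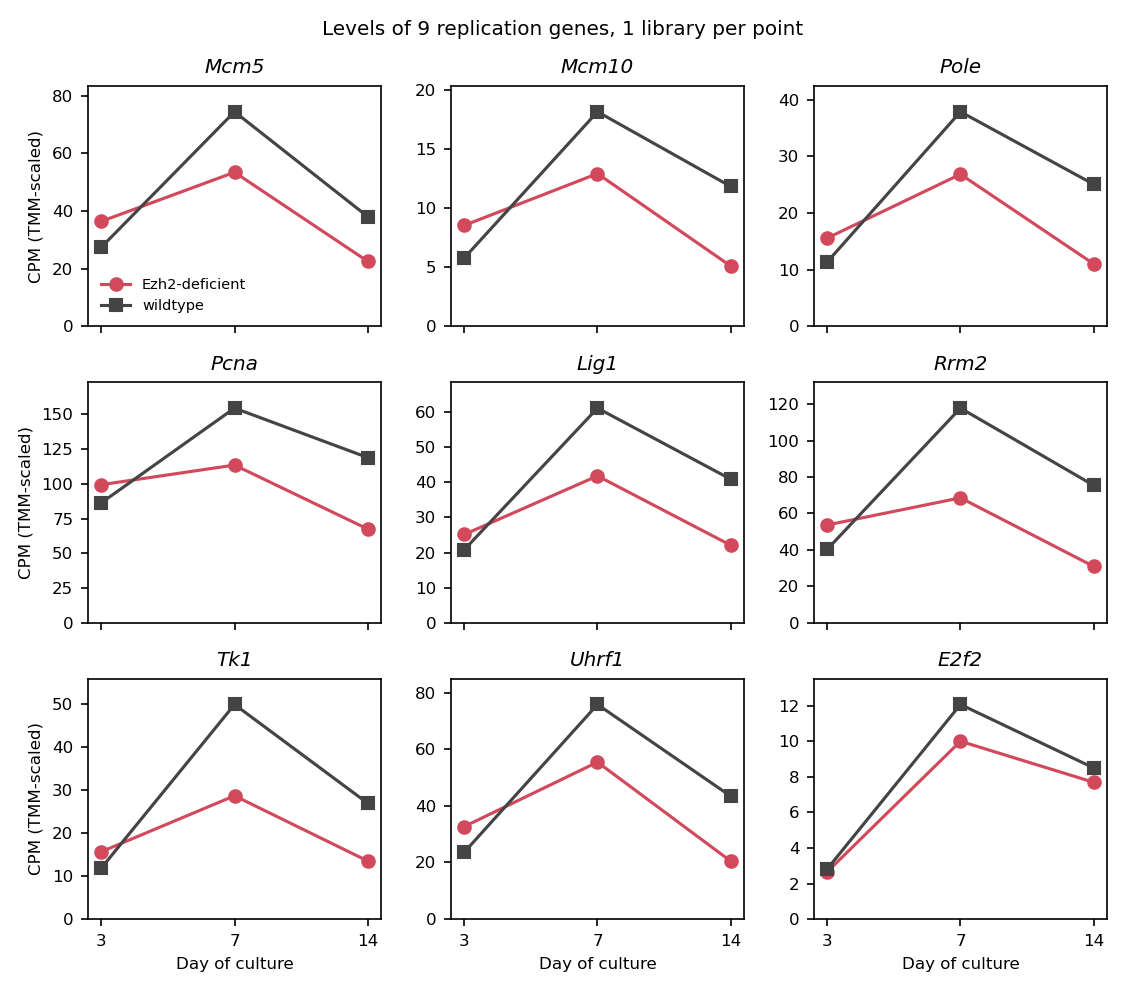
CPM (y axis) against day of culture (x axis, not to scale) for 9 of the 40 genes, 1 library per point, with Ezh2-deficient libraries in red circles and wildtype libraries in dark squares. The lines peak at day 7, and all but E2f2 cross between days 3 and 7, so that Rrm2 is at 30.9 against 75.4 CPM at day 14.

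Day 7 against day 3, with the 2 genotypes standing in for replicates, was the comparison in which most members passed. In edgeR, 22 of 40 were higher at day 7 and 0 lower at an adjusted p under 0.05, where 19.5% of all tested genes were higher. Without adjustment, 33 were higher at p under 0.05 (24.5% of all tested genes). With scaling by total counts 31 members were higher, and over all genes 4316 were higher and 1250 lower, against 3172 and 2709 with TMM. The median log2 difference was 0.89, against -0.02 over all tested genes, and it ran from -0.02 (Orc6) to 2.00 (E2f2). Cell type markers moved as well. Higher at day 7 were 10 of 10 macrophage markers (median 3.28), 9 of 10 fibroblast markers (2.32), 8 of 8 adipocyte markers (2.87) and 7 of 10 osteoblast markers (1.36). Of 10 chondrocyte markers 5 were lower (median -0.87). The adipocyte sum was, like the members, highest at day 7, with 234, 959 and 474 CPM in Ezh2-deficient libraries at days 3, 7 and 14 and 107, 609 and 363 CPM in wildtype libraries. Their part in the rise was not tested. The count leans on single libraries. Without the wildtype day 7 library 1 member, E2f2, passed (8.61% of genes), without the Ezh2-deficient day 7 library 3 did, E2f1, E2f2 and Gmnn (8.64%), and without the Ezh2-deficient day 3 library 38 (19% of genes).

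Within a genotype each day had 1 library, so no test was made and genes were counted by a fixed rule. A gene counted if its larger value was 1 CPM or more, its 2 values differed 2-fold or more, and 1 lay outside the exact 95% counting interval of their ratio. By it, 1 of 40 members was higher at day 7 than at day 3 in Ezh2-deficient libraries (13.5% of genes with at least 1 CPM), against 28 of 40 in wildtype libraries (15.8%). The median log2 difference over members was 0.53 in Ezh2-deficient libraries and 1.24 in wildtype libraries. With scaling by total counts alone the Ezh2-deficient count was 9 (17.5% of genes), and under that scaling the median of all genes in the fit of these days was 0.19, against -0.02 with TMM. At day 14 against day 7, 12 of 40 members were at least 2-fold lower in Ezh2-deficient libraries (5.78% of genes), against 0 of 40 in wildtype libraries (3.16%), with medians of -0.80 and -0.57. The 12 were Uhrf1, Mcm10, Pole, Mcm5, Rrm2, Mcm3, Tk1, Mcm4, Cdc6, Chaf1b, Cdc45 and Mcm6. At a 1.5-fold rule the counts were 31 in Ezh2-deficient libraries (11.7% of genes) and 17 in wildtype libraries (7.62%). Neither step was tested for a difference between genotypes on its own.

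In the fit over both genotypes no member passed for day 14 against day 7, where 2.29% of all tested genes were lower. All 40 fitted differences were negative, with a median of -0.66, and 27 had an unadjusted p under 0.05 (11.6% of all tested genes were lower at that p). DESeq2 called 15 members lower (5.45% of genes) and limma-voom 0. With each library left out in turn, the median ran from -0.95 to -0.41. Leaving out the Ezh2-deficient or the wildtype day 3 library is in effect the same fit of days 7 and 14, not separate checks. The day 3 library left is fitted by its own day term, so the shift of the genotype difference after day 3 drops out of the residual. Over all genes 550 were higher and 373 lower with TMM, against 383 and 482 with total counts, where 1 member, Pold1, was lower.

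Across the whole culture, day 14 against day 3, 3 members were higher (23.2% of all tested genes) and 2 lower (22.4%), shares below those of all genes. E2f2, E2f1 and Gmnn passed upward, and Mcm2 and Orc6 downward. By the 2-fold rule 1 of 40 was higher at day 14 in Ezh2-deficient libraries (16.4% of genes), which was E2f2, against 6 of 40 in wildtype libraries (17.8%), which were E2f2, Chaf1b, Tk1, Pole, Gmnn and Mcm10. The medians had opposite signs, -0.28 in Ezh2-deficient libraries and 0.64 in wildtype libraries. The median of the shared fit, 0.09, became 0.56 without the Ezh2-deficient day 3 library and -0.27 without the wildtype day 3 library. The count higher was then 22 (21.8% of genes) and 1 (19.9%), and the count lower 1 (17.9%) and 5 (18.2%). Of the 5 calls, only that of E2f2 held without each library in turn. The runs without either day 7 library are in effect the same fit here, not separate checks. The day 7 library left is fitted by its own day term. Mcm2 did not pass without the Ezh2-deficient library of day 3 (-0.37), day 7 (-0.59) or day 14 (-0.36), without the wildtype day 7 library (-0.59) or with total counts (-0.54). Orc6 did not pass without the Ezh2-deficient library of day 7 (-0.62) or day 14 (-0.46) or the wildtype day 7 library (-0.62). E2f1 did not pass without the Ezh2-deficient day 14 library (0.79) or the wildtype library of day 3 (0.40) or day 14 (0.58). With 1 library left out, Gmnn passed only where that was the Ezh2-deficient day 3 library (1.05), and it ran from 0.41 to 0.86 without each of the others.

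Among the genes of the helicase, the 6 ring subunits were lower in Ezh2-deficient libraries at days 7 and 14. At day 3 their ratios of Ezh2-deficient to wildtype ran from 1.01 (Mcm6) to 1.33 (Mcm5, 95% counting interval 1.22 to 1.45). Mcm5 had 36.4, 53.5 and 22.6 CPM in Ezh2-deficient libraries at days 3, 7 and 14, against 27.5, 74.4 and 38.1 CPM in wildtype libraries. Mcm6, the most abundant ring subunit per length, had 60.3, 86.1 and 42.9 CPM in Ezh2-deficient libraries, against 59.8, 112 and 71.4 CPM in wildtype libraries. Both genes were lower in the Ezh2-deficient library at days 7 and 14 only, and the interval of the Mcm6 ratio at day 3 took in 1 (0.95 to 1.07). Mcm4, with 39.8, 71.1 and 34.2 CPM in Ezh2-deficient libraries against 34.8, 79.4 and 56.1 CPM in wildtype libraries, followed the same course. Mcm3, Mcm4, Mcm5 and Mcm6 were higher at day 7 than at day 3 in the shared fit, by 0.87, 1.00, 0.96 and 0.70 (log2; adjusted p = 0.0312, 0.0177, 0.0427 and 0.0305).

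Mcm2 stood apart from the other ring subunits. It had 50.6, 50.3 and 26.3 CPM in Ezh2-deficient libraries, against 48.0, 59.4 and 39.4 CPM in wildtype libraries. Its difference between days 7 and 3 was 0.14 ± 0.16 (SE; adjusted p = 0.528), and at day 14 it was 0.61 lower than at day 3 on the log2 scale (-0.61 ± 0.16, adjusted p = 0.0286). Orc6, the smallest subunit of the origin recognition complex, had a like course, with 26.5, 23.8 and 14.3 CPM in Ezh2-deficient libraries and 25.6, 27.8 and 19.4 CPM in wildtype libraries. It was lower at day 14 than at day 3 (-0.64 ± 0.14, adjusted p = 0.0166).

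Mcm10, which helps to activate the assembled helicase, had the steepest genotype trend of the 40. Its levels were 8.56, 12.9 and 5.11 CPM in Ezh2-deficient libraries at days 3, 7 and 14, against 5.79, 18.2 and 11.9 CPM in wildtype libraries. The ratio of Ezh2-deficient to wildtype was 1.48 at day 3 (95% counting interval 1.23 to 1.78) and 0.431 at day 14 (0.351 to 0.528). Cdc45, the helicase partner of the ring, had 10.7, 13.3 and 6.57 CPM against 8.25, 19.9 and 13.1 CPM. Orc1, the origin recognition subunit that comes and goes with the cell cycle, was at the low end, with 3.77, 5.80 and 2.99 CPM in Ezh2-deficient libraries against 2.67, 7.15 and 5.32 CPM in wildtype libraries. All these genes were higher in the Ezh2-deficient library at day 3 and lower in it at days 7 and 14.

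Of the loading factors, Cdc6 had 6.32, 11.4 and 5.58 CPM in Ezh2-deficient libraries against 5.25, 16.8 and 9.57 CPM in wildtype libraries, and Cdt1 had 10.5, 17.4 and 10.5 CPM against 8.52, 21.1 and 15.1 CPM. Both were higher at day 7 than at day 3 (1.24, adjusted p = 0.0202, and 1.00, adjusted p = 0.0191). Gmnn encodes geminin, the inhibitor that holds Cdt1 back after origins have fired. Its levels were 5.89, 11.6 and 7.92 CPM in Ezh2-deficient libraries and 6.07, 18.7 and 12.5 CPM in wildtype libraries. Unlike its target it was not higher in the Ezh2-deficient library at day 3, and at day 14 it stayed above day 3 in both genotypes (0.72 ± 0.20, adjusted p = 0.0343). The GINS genes Gins1 and Gins2 were higher at day 7 than at day 3 as well (1.09, adjusted p = 0.0131, and 0.92, adjusted p = 0.0238).

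Among the polymerases, Pole and Pold1 parted. Pole, the catalytic subunit of leading-strand polymerase epsilon (chromosome 5, 110286319 to 110337453, mm10), had 15.6, 26.8 and 11.02 CPM in Ezh2-deficient libraries at days 3, 7 and 14, against 11.4, 37.9 and 25.1 CPM in wildtype libraries. At day 14 the ratio was 0.44 (95% counting interval 0.382 to 0.504). Pold1, the catalytic subunit of polymerase delta, had 19.8, 27.5 and 18.3 CPM against 18.5, 34.9 and 21.0 CPM, a day 14 ratio of 0.87 (0.77 to 0.984). The genotypes were therefore further apart at day 14 for Pole than for Pold1. The polymerase alpha and primase subunits Pola1, Pola2, Prim1 and Prim2 had day 14 ratios of 0.596, 0.679, 0.625 and 0.751. Prim2 was the member of this role with the lowest day 3 ratio, 0.913 (0.8 to 1.04).

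Pcna, the clamp, was the most abundant of the 40 per length. It had 99.4, 114 and 67.4 CPM in Ezh2-deficient libraries, against 86.3, 155 and 119 CPM in wildtype libraries. Of the clamp loader subunits, Rfc3, Rfc4 and Rfc5, none passed for day 7 against day 3 (0.32, 0.40 and 0.54; adjusted p = 0.201, 0.14 and 0.0822). Lig1, the ligase that seals Okazaki fragments, had 25.2, 41.8 and 22.1 CPM in Ezh2-deficient libraries against 20.8, 61.2 and 40.9 CPM in wildtype libraries. Fen1, the flap endonuclease that acts before it, had 17.3, 22.6 and 14.5 CPM against 14.7, 34.3 and 22.4 CPM. Both enzymes were higher at day 7 than at day 3 (1.11, adjusted p = 0.0274, and 0.79, adjusted p = 0.0482). Rpa2, of the single-strand binding protein, differed less, with a day 14 ratio of 0.794 (0.708 to 0.889).

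Nucleotide supply was the role with the lowest median at days 7 and 14. Rrm2, the regulated subunit of ribonucleotide reductase (chromosome 12, 24708254 to 24714146), had 53.7, 68.5 and 30.9 CPM in Ezh2-deficient libraries at days 3, 7 and 14, against 40.3, 118 and 75.4 CPM in wildtype libraries. Its day 14 ratio, 0.41 (95% counting interval 0.378 to 0.444), was the lowest of the 40. Rrm1, the large subunit, had 62.8, 102 and 56.4 CPM against 51.8, 152 and 102 CPM, a day 14 ratio of 0.554. Tk1, thymidine kinase, had 15.7, 28.7 and 13.5 CPM against 11.9, 49.9 and 26.9 CPM, a ratio of 0.501. Tyms, thymidylate synthase, had 12.5, 15.3 and 9.42 CPM against 12.2, 25.3 and 17.8 CPM, a ratio of 0.528. In all 4 the Ezh2-deficient library was lower at days 7 and 14, while at day 3 the interval of the Tyms ratio took in 1 (0.896 to 1.18). The median log2 difference of the 4 was 0.34, -0.75 and -0.96 at days 3, 7 and 14.

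Of the genes that copy chromatin states, Uhrf1 (chromosome 17, 56303337 to 56323486), which recruits the maintenance methyltransferase to newly copied DNA, had 32.7, 55.5 and 20.5 CPM in Ezh2-deficient libraries. In wildtype libraries it had 23.6, 75.8 and 43.4 CPM. Dnmt1, that methyltransferase, had 90.8, 126 and 74.1 CPM in Ezh2-deficient libraries against 82.0, 152 and 105 CPM in wildtype libraries. The day 14 ratio was 0.471 for Uhrf1 (95% counting interval 0.425 to 0.522) and 0.704 for Dnmt1 (0.664 to 0.745), so the 2 intervals did not overlap. Chaf1a and Chaf1b, the large subunits of chromatin assembly factor 1, had day 14 ratios of 0.635 and 0.517. All 4 genes of this role passed for day 7 against day 3, by 0.67 to 1.28 on the log2 scale (adjusted p from 0.0134 to 0.0475).

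The control genes of S-phase entry differed among themselves. E2f2, an activator E2F, had 2.66, 10.0 and 7.70 CPM in Ezh2-deficient libraries, against 2.82, 12.1 and 8.51 CPM in wildtype libraries. It was the only member at least 2-fold higher at day 7 than at day 3 in both genotypes (2.00 ± 0.16, adjusted p = 0.000938). It was still higher at day 14 than at day 3 (1.56 ± 0.16, adjusted p = 0.00123), and at day 14 its genotype ratio, 0.905, had an interval that took in 1 (0.746 to 1.1). E2f1, the other activator, had 16.7, 26.4 and 22.3 CPM against 15.2, 35.7 and 29.1 CPM and was also higher at day 14 than at day 3 (0.67 ± 0.17, adjusted p = 0.0234). The cyclins that start S phase with Cdk2 were both lower in the Ezh2-deficient library at days 7 and 14. Ccne2 had 8.45, 11.5 and 7.12 CPM in Ezh2-deficient libraries against 7.61, 20.5 and 14.8 CPM in wildtype libraries, a day 14 ratio of 0.48 (0.402 to 0.572). Ccne1 had 15.3, 18.2 and 14.0 CPM against 11.4, 24.3 and 18.7 CPM, a ratio of 0.751 (0.656 to 0.86).

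Taken day by day, the genotype difference of the 40 genes changed sign after day 3. At day 3, 35 of 40 were higher in the Ezh2-deficient library, with a median log2 difference of 0.17 and a range of -0.13 (Prim2) to 0.56 (Mcm10). None reached 2-fold, where 1.81% of genes were higher, while the counting interval of the ratio lay above 1 for 21 (20% of all tested genes) and below 1 for 0. At day 7 all 40 were lower in the Ezh2-deficient library, with a median of -0.45, a range of -0.82 (Ccne2) to -0.16 (Mcm4) and all 40 intervals below 1 (24.3% of genes), yet 0 of 40 reached 2-fold (1.68% of genes). At day 14 all 40 were lower again, with a median of -0.67 and 39 intervals below 1 (23.6% of genes). There 5 of 40 were at least 2-fold lower, namely Rrm2, Mcm10, Pole, Uhrf1 and Ccne2, against 3.32% of genes. The median over all tested genes was 0.00 on each of these days. With scaling by total counts the day 14 count was 9 (3.94% of genes), and at a 1.5-fold rule 8 were lower at day 7 (6.12%) and 24 at day 14 (7.94%). In the same libraries, the summed chondrocyte markers were 53800 CPM in the Ezh2-deficient and 77100 CPM in the wildtype library at day 7, then 23200 CPM and 37700 CPM at day 14, in that order of genotypes. The osteoblast sum at day 14 was 99700 CPM in the Ezh2-deficient and 50300 CPM in the wildtype library. Their part in the difference was not tested.

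**Figure D2:**
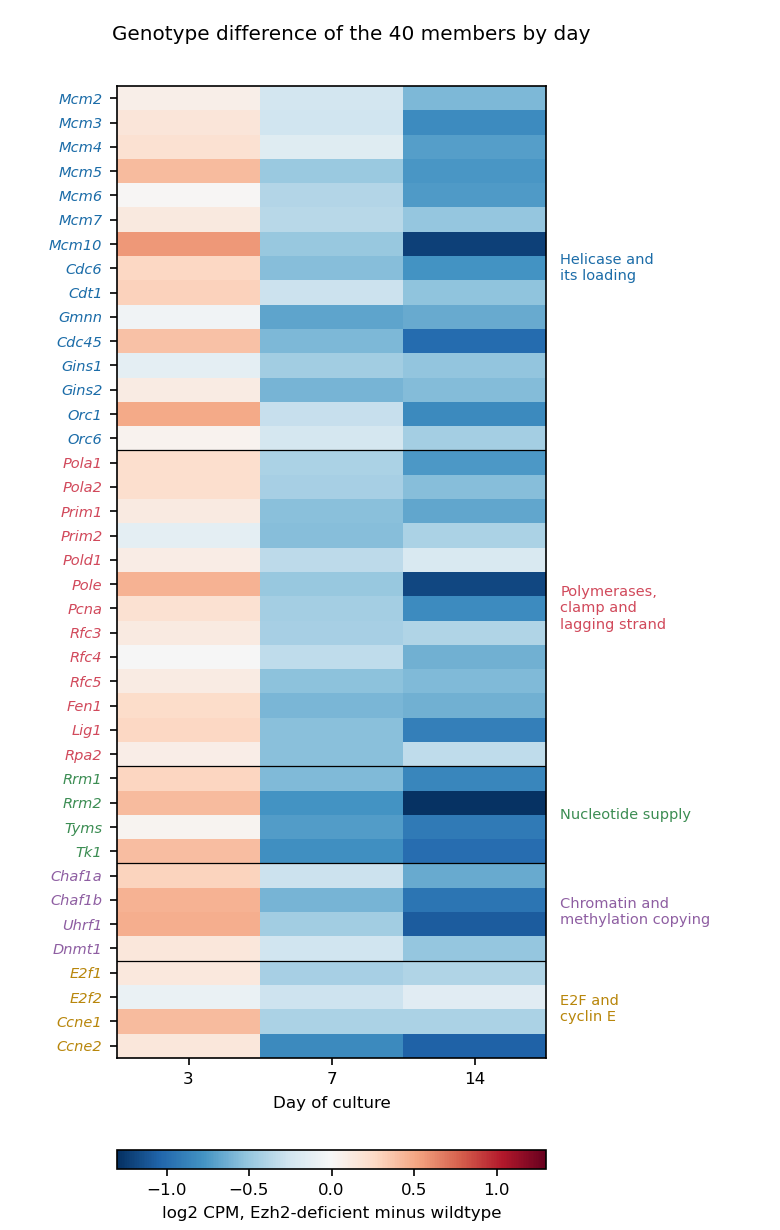
Log2 CPM difference, Ezh2-deficient minus wildtype (colour scale, red higher and blue lower in Ezh2-deficient), for each of the 40 genes (rows, grouped by role) at days 3, 7 and 14 (columns), with 1 library per genotype and day. The day 3 column is mostly pale red, with a median of 0.17, and the day 7 and day 14 columns are blue throughout, with medians of -0.45 and -0.67.

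As a difference shared by the 3 days, none of the 40 passed in edgeR, where 0.0123% of all tested genes were lower. All 40 fitted values were negative, from -0.58 to -0.14 with a median of -0.33, and 4 of 40 reached an unadjusted p under 0.05 in edgeR, a share of 10% beside 6.33% of all tested genes that were lower and 13.2% in either direction. No member passed in DESeq2 or in limma-voom. A fit of days 7 and 14 alone was added after the data had been seen. In it 18 of 40 members were lower in Ezh2-deficient libraries and 0 higher, against 3.04% of all tested genes lower, with 39 at an unadjusted p under 0.05 (10.8% of genes) and a median of -0.56. Of the nucleotide supply genes 4 of 4 passed, of the polymerase genes 7 of 13, of the helicase genes 4 of 15, of the chromatin genes 2 of 4 and of the E2F and cyclin E genes 1 of 4. Tk1 (-0.90 ± 0.11, adjusted p = 0.0122), Rrm2 (-1.03 ± 0.14, 0.0146) and Ccne2 (-0.94 ± 0.13, 0.0172) had the lowest adjusted p. That fit rests on 4 libraries. Leaving out a single day 3 library in place of both is no further check. The day 3 library left is then fitted by its own day term and adds nothing to the genotype difference.

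Whether the genotype difference changed with day was tested directly, as the change in log2(Ezh2-deficient / wildtype) per doubling of day. Every one of the 40 estimates was negative, with a median of -0.39, against 0.00 over all tested genes. Pole (-0.74 ± 0.09, SE, adjusted p = 0.0442), Rrm2 (-0.77 ± 0.09, adjusted p = 0.044) and Uhrf1 (-0.70 ± 0.07, adjusted p = 0.044) passed, 3 of 40 against 0.553% of all tested genes. At an unadjusted p under 0.05 there were 31 of 40, against 8.3% of all genes lower and 13.3% in either direction. Some cell type markers moved too. The median was -0.69 for 8 adipocyte markers (6 lower at an unadjusted p under 0.05) and -0.35 for 10 chondrocyte markers (7 lower, 1 of them called). It was 0.25 for 10 macrophage markers (5 higher). Osteoblast markers moved little, with a median of 0.05 (1 of 10 higher, 1 lower), and fibroblast markers had -0.21 (1 of 10 higher, 2 lower). The part of these cells in the trend was not tested. The steepest estimate, that of Mcm10, did not pass (-0.80 ± 0.11, adjusted p = 0.0563), and the flattest was that of E2f2 (-0.03 ± 0.13, adjusted p = 0.949). On single days, 31 of 40 genes had the order day 3 above day 7 above day 14. The exceptions were Gmnn, Gins2, Prim2, Pold1, Rfc3, Rpa2, E2f1, E2f2 and Ccne1. The fit leaves 1 residual degree of freedom. With 1 library left out, not all 40 estimates stayed negative, and that of Rpa2, for example, reached 0.22. Pole, Rrm2 and Uhrf1 also passed with RLE factors, with total counts, without the filter, in DESeq2 and in limma-voom. With day as a straight line or per day of culture 0 of 40 passed, and so did 0 of all 16280 tested genes. The straight-line fit leaves the day 7 peak of these genes in its residual, so it could hardly call them. That does not apply to the fit per day of culture, which kept day as a factor. The 3 calls thus depended on taking day on the log2 scale.

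**Figure D3:**
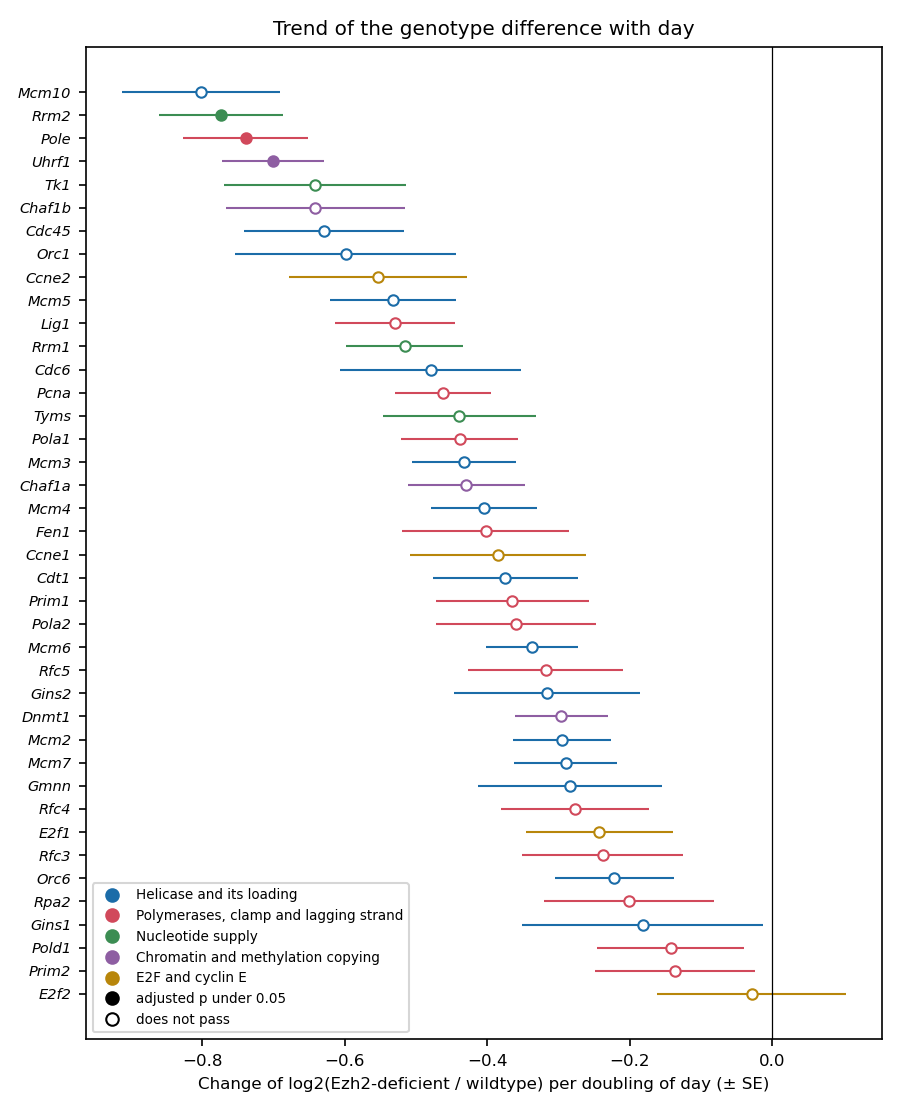
Change of log2(Ezh2-deficient / wildtype) per doubling of day (x axis, with SE as bars) for the 40 genes (rows), coloured by role, with filled points at an adjusted p under 0.05. All 40 points lie below 0, from Mcm10 at -0.80 to E2f2 at -0.03, and the filled points are Rrm2, Pole and Uhrf1.

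Another 40 replication genes, listed for comparison, had a smaller median trend. Of these, 1 passed downward and 0 upward, with a median of -0.25 and 17 at an unadjusted p under 0.05. The 1 was Ccna2, the cyclin of S phase and G2 (-0.81 ± 0.07, adjusted p = 0.044), with 36.0, 69.9 and 26.9 CPM in Ezh2-deficient libraries against 29.6, 126 and 76.7 CPM in wildtype libraries. E2f8, a repressor E2F (-0.77, adjusted p = 0.0542), Clspn, a checkpoint adaptor of the fork (-0.71, adjusted p = 0.0557), and Dbf4, the activator of the Cdc7 kinase that fires origins (-0.58, adjusted p = 0.0688), came next and did not pass. Of 35 mitosis and spindle genes 23 passed downward and 0 upward, with a median of -0.74. Ccnb1 (-0.99), Cenpf (-0.94), Tpx2 (-0.77) and Anln (-0.76), genes of mitotic entry, kinetochore, spindle and cytokinesis, each had an adjusted p = 0.044. Their day 14 median was -1.37, against -0.67 for the 40 replication genes, and the difference between these lists was not tested. Of 18 cyclin D, RB and CDK inhibitor genes 0 passed, with a median of -0.12, and in edgeR an unadjusted p under 0.05 was reached by 1 upward and 4 downward. Ccnd1, cyclin D1, was -0.45 (adjusted p = 0.0765), Cdkn2c -0.46 (0.0957), Cdkn1a 0.28 (0.204) and Cdkn1c -0.56 (0.277), the last 3 being inhibitors of cyclin-dependent kinases. Ezh2 itself had a trend near 0 (0.03 ± 0.08, adjusted p = 0.903), and, like 22 of the 40 members, it was higher at day 7 than at day 3 (0.68 ± 0.10, adjusted p = 0.00597).

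**Figure D4:**
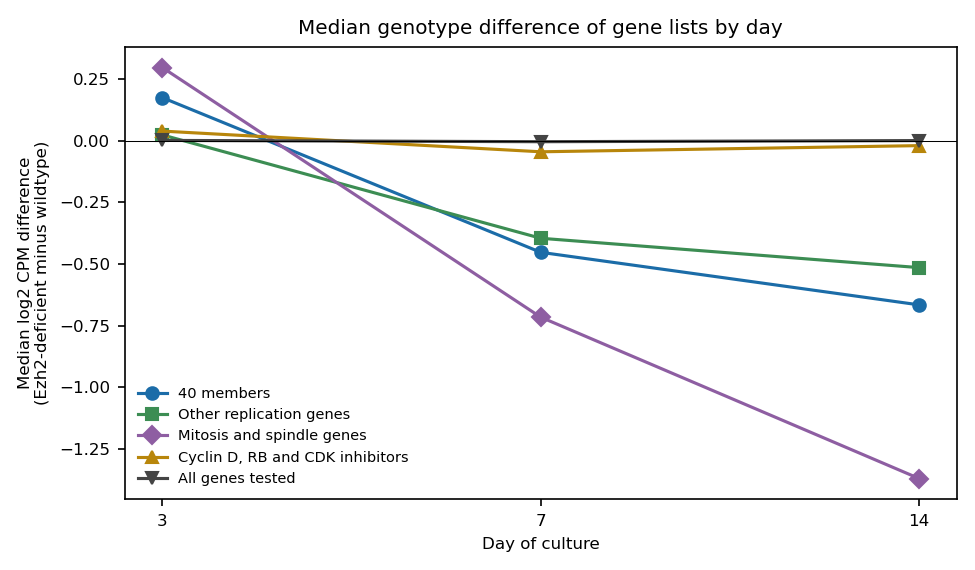
Median log2 CPM difference, Ezh2-deficient minus wildtype (y axis), at days 3, 7 and 14 (x axis, not to scale) for the 40 replication genes, 3 comparison lists and all tested genes, from 1 library per genotype and day. The 40 genes go through 0.17, -0.45 and -0.67, the mitosis genes through 0.30, -0.72 and -1.37, and all tested genes stay at 0.00.

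Levels can be set side by side between genes only per length, for which the authors' RPKM values (reads per kilobase of gene, scaled to library size) serve. Pcna led with a mean of 69.5 RPKM over the 6 libraries, followed by Rrm2 (24.5), Mcm6 (20.5), Mcm7 (19.5) and Rrm1 (18.2). The lowest were Cdc6 (1.62), E2f2 (1.28) and Orc1 (1.27). Within each complex the subunits differed. The 6 ring subunits, which form a complex with 1 copy of each, ran from 10.2 RPKM (Mcm5) to 20.5 RPKM (Mcm6). Pcna ranged from 41.1 to 79.2 RPKM in Ezh2-deficient libraries and from 53.1 to 107 RPKM in wildtype libraries, and in each library it was above every other member. Neighbours further down overlapped. Rrm2, for example, ran from 10.9 to 27.7 RPKM in Ezh2-deficient and 14.3 to 47.1 RPKM in wildtype libraries, and Mcm6 from 11.4 to 26.1 RPKM and 16.0 to 33.7 RPKM.

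**Figure D5:**
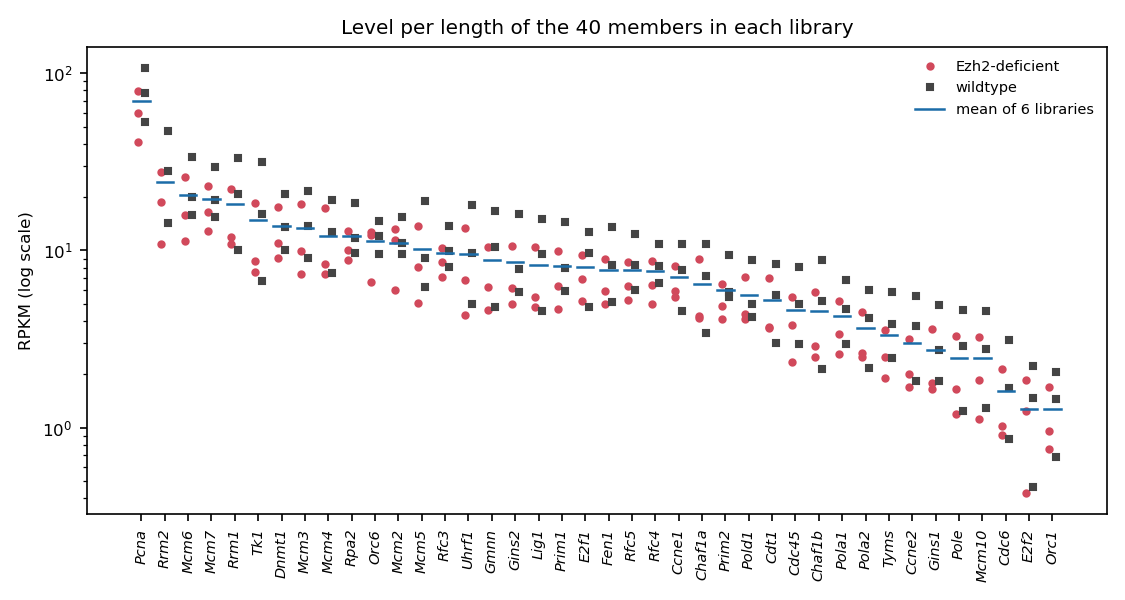
RPKM (y axis, log scale) of the 40 genes (x axis, ordered by mean) in each of the 6 libraries, with Ezh2-deficient libraries as red circles, wildtype libraries as dark squares and the mean of 6 libraries as a blue bar. Pcna stands above all others at a mean of 69.5 RPKM, and the libraries of neighbouring genes overlap down to Orc1 at 1.27 RPKM.

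For 13 of the 40 genes an exon overlaps an exon of another gene in the GENCODE annotation of mm10, in which all 40 lie at the place given in the table. These are Mcm7, Cdc45, Gins2, Orc1, Orc6, Pole, Rfc4, Rfc5, Fen1, Lig1, Tk1, Chaf1a and Ccne2, and without strand information some of their reads may belong to the neighbour. Rrm2 and Uhrf1 are not among them.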

How the data were processed

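RNA was sequenced in 6 libraries, 1 for each genotype and day. The deposited table held whole-number counts per gene, not normalized, and RPKM values that the authors had scaled by a gene length and a total per library, per the file headers. Every count was even, so a fragment is taken as 2 counts, an assumption made from the values. The submitters' processing notes name CASAVA 1.9, TopHat 12.0.6, HTSeq and the build mm10 without saying what each did. Neither those notes nor the labels state strandedness or annotation.

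All tests used the counts, with TMM scaling, filterByExpr (minimum count 10, day as group) and edgeR 4.0.16 in R 4.3.3: the quasi-likelihood F test with Benjamini-Hochberg adjustment (p-values two-sided) over the genes each fit tested (16280 with all libraries, 15808 for days 7 and 14 alone, 19641 without the filter) and a threshold of 0.05. DESeq2 1.42.0 and limma-voom 3.58.1 were alternatives. The genotype and day differences came from a fit of genotype and day (2 residual degrees of freedom), and the trend added genotype times centred log2 day (1 residual degree of freedom). Days or genotypes thus stood in for replicates, and nothing says that libraries came from separate cultures, so p-values measure only the spread between these libraries. SE is the absolute log2 difference over the square root of F. Log2 CPM used a prior count of 2. The scripts were tested on simulated data. Lists and members were chosen with earlier results of these data known. Named were all 40 members, up to 4 genes of each other list by trend p, and Ezh2. A protein motif search was not run.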

Additional observations from a re-analysis of the deposited data

Results flagged for a closer look

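The genotype difference changed with day for several of the genes named. By the edgeR test of genotype times log2 day, the change per doubling of day was -0.74 for Pole, -0.77 for Rrm2 and -0.70 for Uhrf1. Among the comparison genes it was -0.81 for Ccna2, -0.99 for Ccnb1, -0.77 for Tpx2, -0.94 for Cenpf and -0.76 for Anln. The median difference of the 40 replication genes was 0.17 at day 3 and -0.67 at day 14 (log2, Ezh2-deficient minus wildtype). That pair of medians comes from 1 library per genotype and day, and the difference between them was not tested as such.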

How the results depend on the processing

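Settings other than TMM-scaled edgeR moved counts of genes more than directions. For the genotype difference shared by the days, 2 genes passed, against 9 with RLE factors, 0 with total counts, 9 without the filter, 625 in DESeq2, 40 in limma-voom and 863 in days 7 and 14 only, where 18 members passed with a median of -0.56. No replicate numbers are given, so day served as the block, and without that block 0 genes passed. For the trend 100 genes and 3 members passed, against 270 and 11 with total counts, 247 and 8 without the filter, 339 and 9 in DESeq2, and 0 and 0 both with log2 day as a straight line and per day of culture (median -0.070 per day). For day 14 against day 7, 923 genes and 0 members passed, against 1960 and 15 in DESeq2, and 1 member with total counts. For day 14 against day 3, 1 member was lower with total counts, and Orc6 at day 7 against day 3 became 0.19.

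By the 2-fold rule, total counts gave 9 members lower at day 14 by genotype. Within Ezh2-deficient libraries they gave 9 higher at day 7 against day 3 (median 0.76, with 17.5% of genes higher). At day 14 against day 7 they gave 20 lower within Ezh2-deficient libraries (8.41% of genes) and 2 lower within wildtype libraries (3.83%). Within wildtype libraries 13 were higher at day 14 against day 3 (19.5% of genes). A 1.5-fold rule gave 8 lower at day 7 and 24 at day 14 by genotype. Within Ezh2-deficient libraries it gave 18 higher at day 7 against day 3 (21% of genes), 31 lower at day 14 against day 7 and 7 lower at day 14 against day 3 (18.6%), and within wildtype libraries 17 lower at day 14 against day 7 and 21 higher at day 14 against day 3 (24.7%).

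Leaving out each library in turn left 1 sample in an arm, assumed to vary like the others. The shared genotype difference then gave 0 to 1041 genes, 0 to 22 members and a median of -0.56 to -0.13. Day 14 against day 3 gave 4912 to 6607 genes (7414 with all libraries), 1 to 22 members higher, 0 to 5 lower and a median of -0.27 to 0.56. Day 7 against day 3 gave 1860 to 5699 genes, 1 to 38 members higher and a median of 0.46 to 1.27, with Orc6 at -0.21 to 0.17 and Mcm2 at -0.092 to 0.39. Day 14 against day 7 gave 45 to 2537 genes, 0 to 34 members lower and a median of -0.95 to -0.41. The trend kept a negative median, -0.54 to -0.24, with no residual degree of freedom and so no test. Not every member stayed negative. The highest estimates were 0.22 for Rpa2, 0.14 for Pold1, 0.14 for Prim2, 0.13 for E2f2 and 0.051 for E2f1. Those of Rfc3 (0.043), Gmnn (0.037), Gins2 (0.035) and Ccne1 (0.002) were also above 0, and all other members stayed negative. The cause of these changes was not tested. Where a library was left out, the other library of its day was fitted by its own day term. Both runs of a day were thus in effect the same fit for the shared genotype difference. So were both day 3 runs for day 14 against day 7. The same held for both day 7 runs for day 14 against day 3, and both day 14 runs for day 7 against day 3. The 22 members lower by genotype came from the day 3 runs. There 3.53% of all tested genes were lower without the Ezh2-deficient and 3.5% without the wildtype library. The 34 members lower at day 14 against day 7 came from the same runs, with 7.7% and 7.6% of genes lower. Shares of genes for the comparisons with day 3 are given with those results. With 1 library per genotype and day, the tests rest on 2 or 1 residual degrees of freedom. A protein motif search was not run.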
